A study of Mus musculus with 15 samples.

Results

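Interleukins and interferons reach the cells of the gut through receptors that pass their signal to JAK kinases and STAT transcription factors, and the genes of these receptors, kinases, STATs and their SOCS inhibitors were examined in RNA sequencing of ileal tissue from 15 female C57BL/6 mice (C57BL/6JOlaHsd in the study's methods). The genes were chosen by symbol (interleukin receptors and names that begin like them, Ifnar1, Ifnar2, Ifngr1, Ifngr2, the JAK kinases with Tyk2, the STATs, Socs1 to Socs7 and Cish) and by a mean of at least 0.1 FPKM over the 15 mice. FPKM is a level scaled for gene length and for the size of the library. Of the 17752 genes listed in any mouse, 64 had such a symbol and 58 also passed the minimum. The 58 comprised 39 interleukin and interferon receptor genes (with Il1rn, the soluble antagonist of the interleukin-1 receptor, counted among them), 4 kinases, 7 STATs and 8 inhibitors. The lowest gene inside the minimum was Il5ra, with a mean of 0.201 FPKM, and the highest of the 6 outside it was Il11ra2, with 0.0787 FPKM. The other 5 outside were Il31ra, Il13ra2, Il20ra, Il1rapl1 and Il1rapl2. All 58 genes also passed the filter on low counts that precedes the tests below.

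The mice formed 3 groups, at 8 weeks of age by their labels. Proanthocyanidins (PAC) are plant polyphenols built as chains of flavanol units, and the fractions given here came from grape and differed in chain length. The water group (5 mice) was gavaged with water, the low PAC group (5 mice) with low molecular weight PAC and the high PAC group (5 mice) with high molecular weight PAC, in each case every 2 days over 10 days. The dose of either PAC was 200 mg/kg. The study's methods describe the fractions as of low and medium mean degree of polymerization, and the group names of the labels are used below. Each mouse gave 1 library, so that the spread between libraries of a group is that between animals together with the piece of gut taken. Each replicate number names 1 mouse within its group only.

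A cytokine brings receptor chains together at the cell surface, and the JAK kinases bound to these chains phosphorylate them and the STAT proteins that dock there. The STATs then enter the nucleus and bind DNA, and among the genes they turn on are Cish and several SOCS genes, whose proteins act back on the receptors and kinases. In the intestine, interleukin-22 acts on epithelial cells through a receptor of Il22ra1 and Il10rb, which signals by Jak1, Tyk2 and Stat3. Interferon gamma acts through Ifngr1 and Ifngr2 with Jak1 and Jak2, and interleukin-4 and interleukin-13 act through Il4ra and Il13ra1 with Stat6. The interleukin-1 and interleukin-17 receptors also matched by symbol, but their signals run through other adaptors and not through JAK kinases.

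STATs bind the palindrome TTCNNNGAA, which reads the same on both strands. RefSeq promoter windows of GRCm38, from 250 bases before to 50 bases after each transcript start, were at hand for 46 of the 58 genes. The motif was present in at least 1 window of 8 of these 46 (17.4%), against 2582 of 27025 genes with a window (9.55%), and in 8.30% of all 32851 windows. The 8 were Cish, Socs3, Il7r, Il1r2, Il18r1, Il12rb2, Ifnar1 and Ifnar2. Cish and Il18r1 had 2 copies each. A match of these letters is a description of the window and not a measured binding site. The windows of Cish and Socs3 are shown because both genes are inhibitors known to be induced by STATs, and that of Il17re because it was the only one of the 58 genes with all 10 PAC mice above all water mice. Each sequence starts 250 bases before the transcript start and runs 20 bases past it, 5′ to 3′ on the strand of the gene, with the motif in capitals. Cish (chr9:107296409-107296678, plus strand) had the motif at the start itself and again 11 bases after it, Socs3 (chr11:117969347-117969616, minus strand) had it 154 bases before the start, and the window of Il17re (chr6:113458521-113458790, plus strand) had no match.
Cish: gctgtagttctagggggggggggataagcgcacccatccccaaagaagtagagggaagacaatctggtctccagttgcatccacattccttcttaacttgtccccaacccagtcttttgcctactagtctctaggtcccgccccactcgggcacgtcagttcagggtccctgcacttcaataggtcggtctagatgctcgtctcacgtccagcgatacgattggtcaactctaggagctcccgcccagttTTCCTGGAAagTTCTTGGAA
Socs3: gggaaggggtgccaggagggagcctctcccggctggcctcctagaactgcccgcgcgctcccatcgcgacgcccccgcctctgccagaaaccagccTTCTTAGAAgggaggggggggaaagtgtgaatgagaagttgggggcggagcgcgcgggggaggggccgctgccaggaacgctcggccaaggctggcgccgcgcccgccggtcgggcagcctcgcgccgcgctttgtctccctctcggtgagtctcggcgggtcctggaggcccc
Il17re: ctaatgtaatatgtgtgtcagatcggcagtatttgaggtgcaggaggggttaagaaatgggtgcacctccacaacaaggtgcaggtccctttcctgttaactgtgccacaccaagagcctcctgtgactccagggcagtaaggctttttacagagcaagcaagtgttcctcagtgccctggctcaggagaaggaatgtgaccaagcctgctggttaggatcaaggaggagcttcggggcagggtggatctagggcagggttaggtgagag

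The expected counts, which estimate the read pairs of each gene, summed to between 15963086 and 17903886 per mouse, so depth hardly differed between groups. The tissue was checked by Fabp6 and Slc10a2, which mark the distal ileum and lay between 4196 and 10619.9 FPKM and between 94.8 and 350 FPKM in the 15 mice. Some libraries stood apart. Water replicates 4 and 5 were the lowest in both, with 4307 and 4196 FPKM of Fabp6 against at least 5937 in the other 13 mice, and 139 and 94.8 FPKM of Slc10a2 against at least 151. High PAC replicate 3 had an FPKM sum of 677075 against 502110 to 573980 in the other mice. Water replicates 1 and 3 were low in 6 smooth muscle markers (summed FPKM of 302 and 261, against 552 to 1068 in the other 13 mice) and near 0 in 4 mesothelium markers (0.09 and 0.18, against 2.73 to 17.4). The summed FPKM of 9 B cell markers was 75.1 to 247 in 7 mice (water replicates 1, 3 and 5, low PAC replicates 3 and 5, and high PAC replicates 1 and 3) and 6.23 to 9.81 in the other 8. In bulk tissue, fewer cells of a type and less RNA per cell cannot be told apart.

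The highest levels among the 58 genes were those of the interferon gamma receptor (FPKM divides by gene length, so that levels of different genes can be set side by side). In the water group, Ifngr2 had a mean of 133 ± 7.46 FPKM (SD, n = 5) and Ifngr1 of 116 ± 10.3 FPKM, and their ranges overlapped. Il10rb, the chain shared by the receptors of interleukin-10, interleukin-22 and the lambda interferons, was at 53.0 ± 2.13 FPKM. Its partner for interleukin-22, Il22ra1, was at 36.6 ± 0.827 FPKM, below every Il10rb value. In contrast, Il10ra, which pairs with Il10rb for interleukin-10, was at 2.44 ± 0.699 FPKM. The type I interferon receptor chains Ifnar2 and Ifnar1 were at 14.1 ± 1.04 and 12.4 ± 1.08 FPKM, with overlapping ranges.

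**Figure D1:**
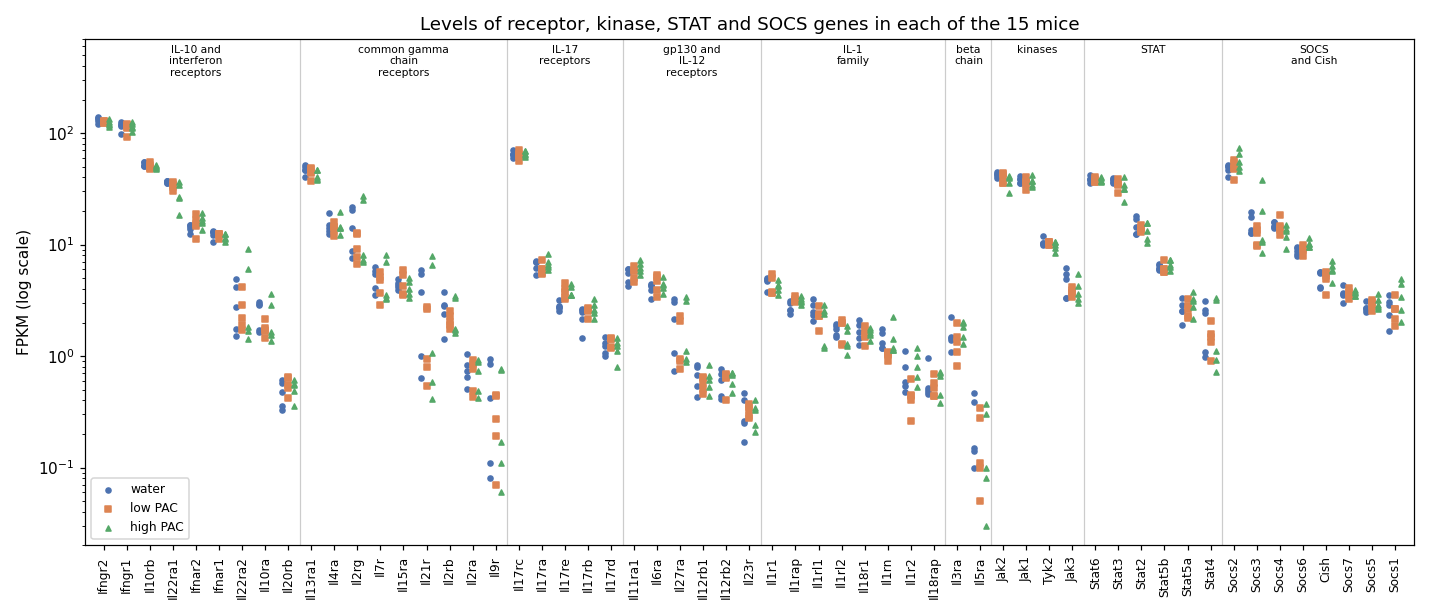
FPKM on a log scale of 57 of the 58 genes in each mouse, ordered within each class by the mean of the water group, with circles for water, squares for low PAC and triangles for high PAC. Ifngr2, Ifngr1, Il17rc, Il10rb, Socs2, Il13ra1, Jak2, Stat6, Jak1, Stat3 and Il22ra1 had a mean over 20 FPKM, and 9 genes lay under 1 FPKM.

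Of the receptors that share the common gamma chain or its partners, Il13ra1, a chain of the interleukin-13 receptor, was highest in the water group (46.8 ± 4.39 FPKM), and Il4ra (14.7 ± 2.62 FPKM) and the common gamma chain Il2rg itself (14.6 ± 6.54 FPKM) came next with overlapping ranges. Il17rc, a chain of the interleukin-17 receptor, had 64.8 ± 4.17 FPKM, and its partner Il17ra 6.49 ± 0.764 FPKM. Il17re, which pairs with Il17ra to bind the epithelial cytokine interleukin-17C, was at 2.80 ± 0.251 FPKM, below every Il17ra value. The highest of the interleukin-6 and interleukin-12 receptor family were Il11ra1 (5.28 ± 0.814 FPKM), Il6ra (4.03 ± 0.475 FPKM) and Il27ra (2.05 ± 1.14 FPKM), each overlapping its neighbour. In the interleukin-1 family the order was Il1r1 (4.63 ± 0.520 FPKM), Il1rap (2.73 ± 0.314 FPKM) and Il1rl1 (2.59 ± 0.462 FPKM), of which the last 2 overlapped. Il3ra (1.54 ± 0.434 FPKM) and Il5ra (0.25 ± 0.168 FPKM) of the common beta chain family were low. Over all 58 genes, 12 had a mean of at least 20 FPKM over the 15 mice, 13 lay between 5 and 20, 24 between 1 and 5, and 9 under 1.

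The kinases Jak2 (42.3 ± 2.17 FPKM) and Jak1 (38.1 ± 2.23 FPKM) were the most abundant in the water group and overlapped in range. Tyk2 was at 10.5 ± 0.779 FPKM, and Jak3, the partner of the common gamma chain in lymphocytes, at 4.62 ± 1.26 FPKM. Among the STATs, Stat6 (38.5 ± 2.39 FPKM) and Stat3 (37.9 ± 1.66 FPKM) overlapped at the top, and lower levels were those of Stat2 (14.9 ± 2.59 FPKM), Stat5b (6.26 ± 0.355 FPKM), Stat5a (2.64 ± 0.519 FPKM) and Stat4 (2.04 ± 0.952 FPKM). Stat5a and Stat5b are near-identical copies, and the exons of Stat5a and Stat3 overlap on opposite strands, so a share of their reads could be assigned to the wrong gene. Socs2, an inhibitor of growth hormone signalling, was the most abundant inhibitor (47.7 ± 4.70 FPKM), above every value of Socs3 (15.2 ± 3.12 FPKM) and Socs4 (15.03 ± 0.798 FPKM).

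High PAC was compared with water to ask whether the fraction altered the RNA of these genes. None of the 58 genes passed an adjusted p of 0.05 in edgeR's quasi-likelihood test, DESeq2 or limma, and edgeR called 2 of 14386 genes over the whole table (0.0139%). At an unadjusted edgeR p under 0.05, 9 of the 58 genes were lower with high PAC (15.5%, against 10.4% of all genes tested) and 1 was higher (1.72%, against 4.37%). The 9 were Il10rb, Il22ra1, Ifngr2, Ifnar1, Il13ra1, Jak2, Tyk2, Stat3 and Socs4, and the 1 was Il17re. The two-sided exact permutation test on log2(FPKM + 0.1) gave p = 0.0079 for Il17re, 0.0238 for Il22ra1 and 0.0317 for Il10rb and for Socs4, and 6 of the 9 were past 0.05 by it, with 0.0556 for Jak2, 0.0635 for Stat3 and for Ifngr2, 0.103 for Il13ra1, 0.222 for Tyk2 and 0.286 for Ifnar1. Socs6, which was not among these genes, had p = 0.0238 by the two-sided exact permutation test on log2(FPKM + 0.1). By the two-sided exact permutation test, Il22ra1, Il10rb and Socs4 were thus lower and Il17re and Socs6 higher at p under 0.05. The median log2 fold change of the 58 genes was -0.12, with 40 negative, and that of all genes tested was 0.00. The lower counts depend on mice of both groups and on the scale. Without high PAC replicate 3, 6 genes were lower and 1 was higher, and the median was -0.11. Without water replicates 1 and 3, the mice low in smooth muscle, a choice made after seeing the data, 2 genes were lower (Il22ra1 and Socs4), 1 was higher (Il17re) and the median was 0.0097, beside 0.016 for all genes in that fit. All of the 9 stayed negative there, with -0.27 for Stat3 (edgeR unadjusted p = 0.0688) and -0.24 for Jak2 (0.0723). Il13ra1 had -0.18 (0.149), Tyk2 -0.12 (0.133) and Ifnar1 -0.11 (0.211). On log2(FPKM + 0.1) with limma, 3 were lower and 3 higher, and with upper-quartile factors 7 were lower and 2 higher. The median of the 58 genes was then -0.05 in each, beside 0.09 and 0.07 for all genes in these fits, so the scale moved all genes. The share of all genes under the threshold was counted for the main fit only. Without water replicates 4 and 5, the mice low in Fabp6 and Slc10a2, again a choice made after seeing the data, 12 genes were lower and 1 higher, and the median was -0.18.

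**Figure D2:**
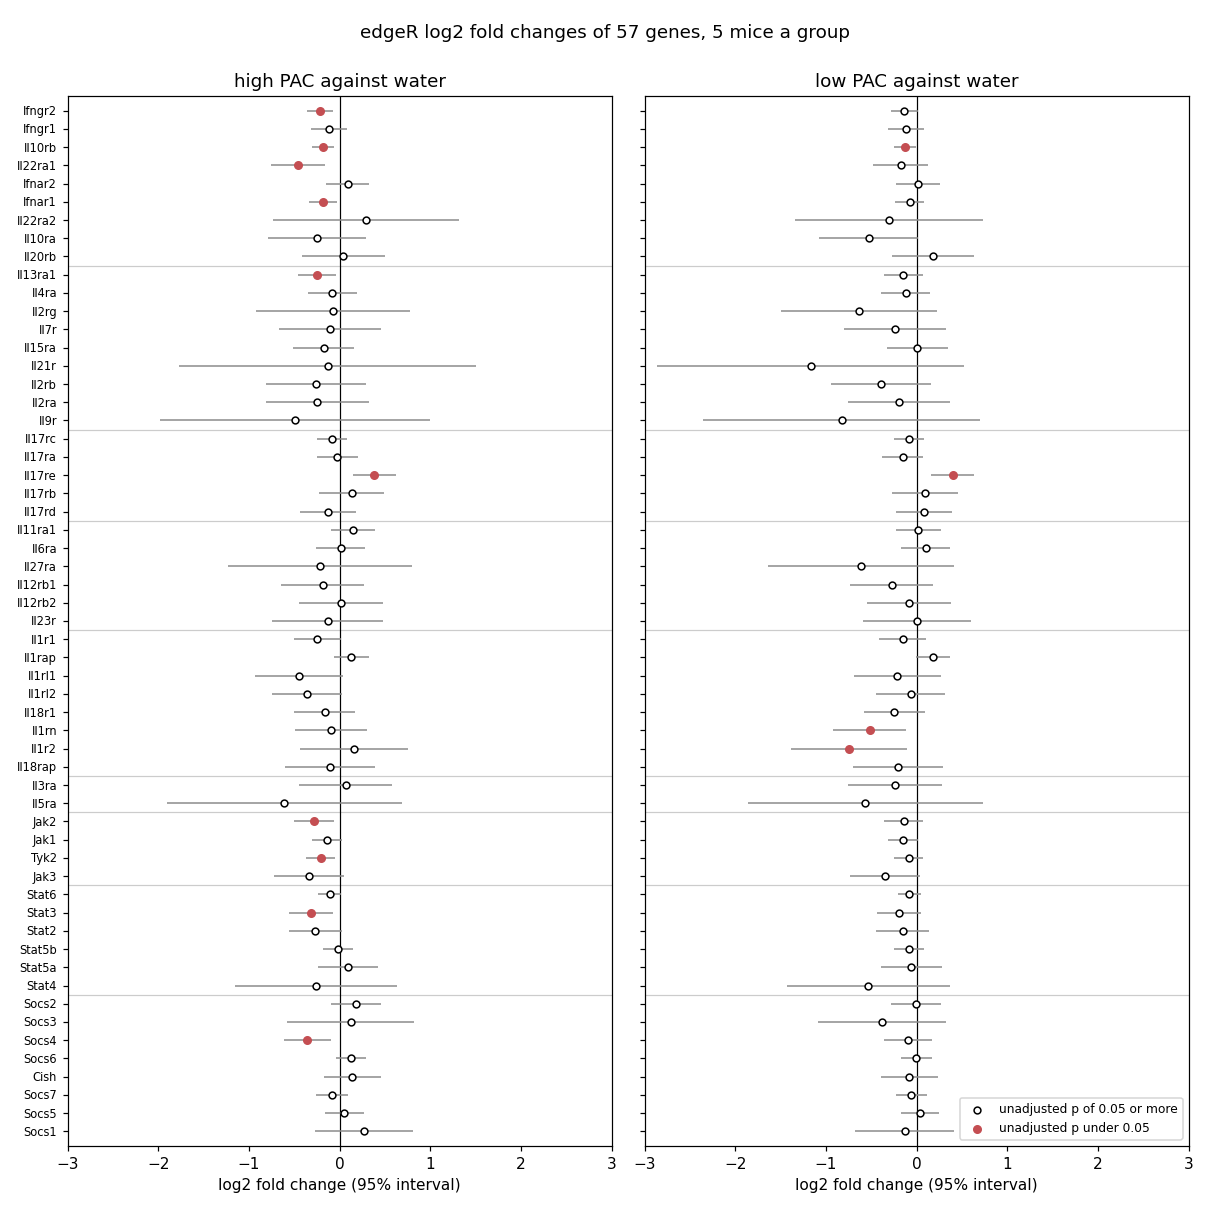
Log2 fold change of 57 of the 58 genes by edgeR with its 95% interval, for high PAC against water on the left and low PAC against water on the right, in the order of the plot of levels, with grey lines between classes and filled points at an unadjusted p under 0.05. Il17re is the only filled point above 0 in either comparison, and the widest intervals are those of Il21r, Il9r and Il5ra.

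Markers of the main tissue parts were set beside this comparison, and 0 of them passed an adjusted p of 0.05 by edgeR. Of 7 epithelial markers, 6 had a negative log2 fold change and 2 had an unadjusted p under 0.05, with summed levels of 5653 to 6768 FPKM in the water mice and 5710 to 6109 FPKM in the high PAC mice. All 6 smooth muscle markers had a positive one, and 0 of them an unadjusted p under 0.05, with sums of 261 to 885 and 673 to 1068 FPKM. All 7 macrophage markers had a negative one (median -0.15), 1 of them with an unadjusted p under 0.05, and their sums were 110 to 152 FPKM in water and 107 to 181 FPKM in high PAC. All 4 mesothelium markers had a positive one (median 0.93, 0 with an unadjusted p under 0.05), with sums of 0.09 to 13.6 and 2.73 to 17.4 FPKM. Negative values were also found in 3 of 9 B cell, 5 of 8 T cell and 4 of 5 plasma cell markers and in 0 of the 2 distal ileum markers, 0 of these with an unadjusted p under 0.05. Every marker of these lists was listed. Of tissue composition, the fits without 2 water mice and the fit with a B cell score bear on the lower values, and the part of the other cell types was not tested.

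Both chains of the interleukin-22 receptor were among the 9. Il22ra1 (gene ID 230828, chr4:135728172-135752140) was at 37.1, 35.9, 36.9, 35.5 and 37.4 FPKM in water replicates 1 to 5 and at 26.1, 27.0, 18.3, 36.3 and 34.3 FPKM in high PAC replicates 1 to 5. Of the 5 high PAC mice, 4 lay below the lowest water mouse, and replicate 4 lay within the water range. The log2 fold change was -0.46 (95% interval -0.76 to -0.16, edgeR unadjusted p = 0.00519, adjusted p = 0.211), and the two-sided exact permutation test on log2(FPKM + 0.1) gave p = 0.0238, where 0.0079 is the smallest value that 5 against 5 mice can give. Without high PAC replicate 3, the lowest, it was -0.30 (unadjusted p = 0.00698). With the B cell score as a covariate it was -0.49 (unadjusted p = 0.00254).

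Il10rb (gene ID 16155, chr16:91406164-91425834) was at 55.3, 51.0, 55.2, 51.2 and 52.1 FPKM in the water mice and at 51.0, 49.1, 52.1, 47.2 and 48.9 FPKM in the high PAC mice. Again 4 of 5 high PAC mice lay below the lowest water mouse, here by a small margin, and replicate 3 lay within the water range. Its log2 fold change was -0.19 (95% interval -0.31 to -0.07, edgeR unadjusted p = 0.00443, adjusted p = 0.202, DESeq2 adjusted p = 0.0680), on the FPKM scale -0.09 (limma unadjusted p = 0.102), and -0.12 (edgeR unadjusted p = 0.0724) without water replicates 1 and 3. Exons of Il10rb and of Ifnar2 are shared with the readthrough gene Gm21970, so their reads could be split.

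Of the kinases and the STAT of that receptor, Stat3 and Tyk2 were among the 9 and Jak1 was not. Stat3 (gene ID 20848, chr11:100885098-100939540) was at 38.1, 35.7, 39.0, 36.8 and 39.7 FPKM in the water mice and at 34.1, 31.8, 24.1, 40.7 and 31.3 FPKM in the high PAC mice. Among the high PAC mice 4 were below all water mice, and replicate 4 was above them all. For Stat3 the log2 fold change was -0.32 (95% interval -0.56 to -0.08, edgeR unadjusted p = 0.0136, adjusted p = 0.260, exact permutation p = 0.0635), and -0.19 (unadjusted p = 0.0484) without high PAC replicate 3. Jak1 had a log2 fold change of -0.14 (unadjusted p = 0.0852), with 36.8 ± 3.63 FPKM in the high PAC mice. Tyk2 (gene ID 54721, chr9:21104068-21131243) had 9.86 to 11.9 FPKM in the water mice and 8.36 to 10.6 FPKM in the high PAC mice, ranges that overlapped, and a log2 fold change of -0.21 (unadjusted p = 0.0141, exact permutation p = 0.222). Without high PAC replicate 3 it was -0.12 (unadjusted p = 0.0580).

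**Figure D3:**
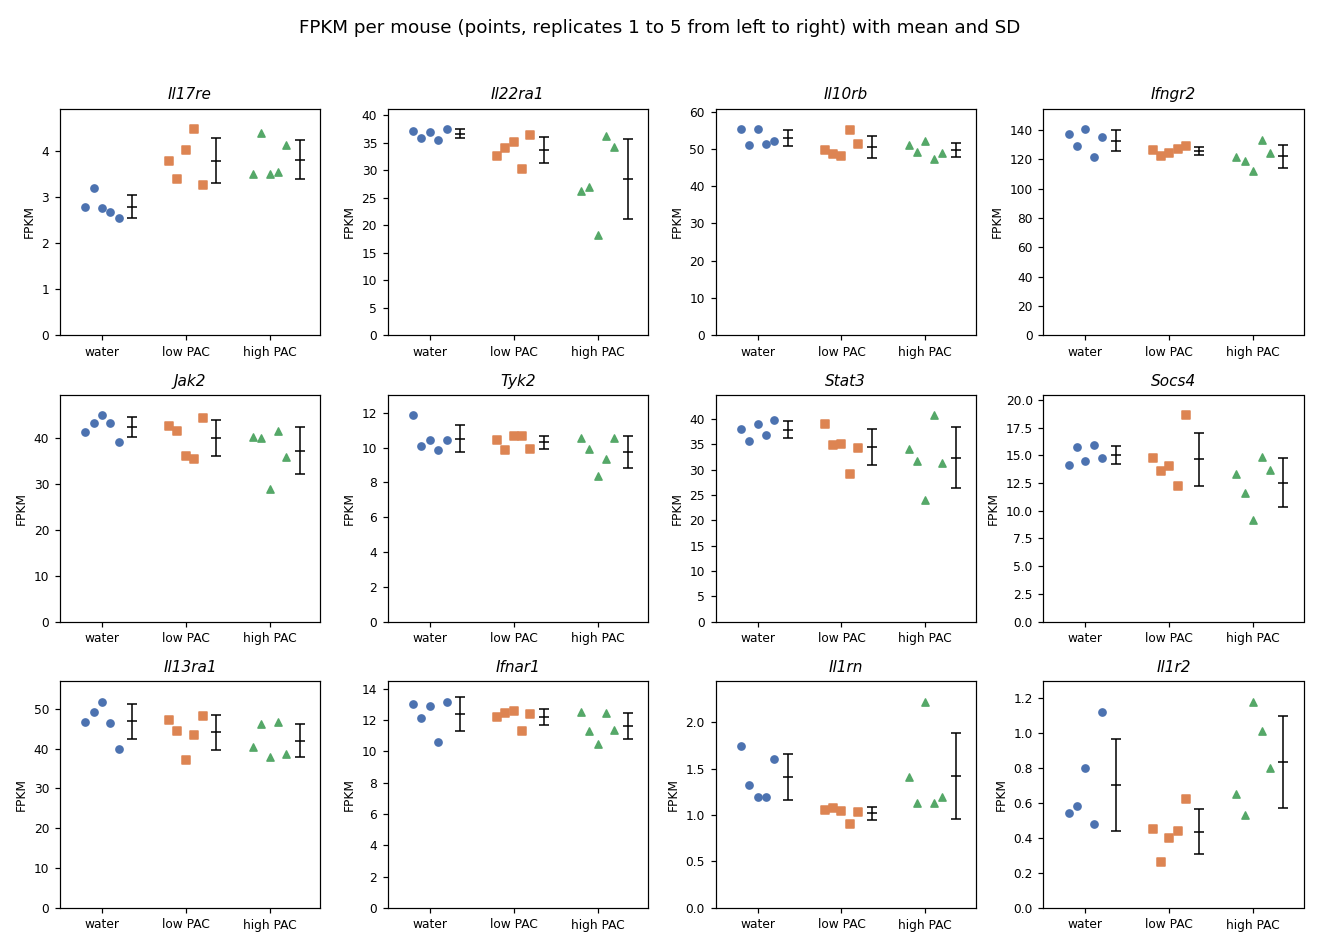
FPKM from 0 of the 12 genes with an unadjusted edgeR p under 0.05 in any comparison, 1 point per mouse with replicates 1 to 5 from left to right in each group, and the mean with the SD beside them. All PAC points of Il17re lie above the water points, and high PAC replicate 3 is the lowest point of Il22ra1, Ifngr2, Jak2, Tyk2, Stat3, Socs4 and Ifnar1.

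Of the interferon receptor chains, Ifngr2 and Ifnar1 were among the 9, and differences between chains were not tested. Ifngr2 (gene ID 15980, chr16:91547072-91565623) was at 138, 129, 141, 122 and 135 FPKM in the water mice and at 122, 119, 112, 133 and 125 FPKM in the high PAC mice, so that 3 high PAC mice lay below the lowest water mouse and 2 lay within the water range. Its log2 fold change was -0.22 (95% interval -0.36 to -0.07, edgeR unadjusted p = 0.00594, adjusted p = 0.217, DESeq2 adjusted p = 0.0730). It was -0.12 (limma unadjusted p = 0.0555) on the FPKM scale and -0.14 (edgeR unadjusted p = 0.0801) without water replicates 1 and 3. Its partner Ifngr1 had -0.12 (95% interval -0.32 to 0.08). Ifnar1 (gene ID 15975, chr16:91485238-91507441) had a log2 fold change of -0.19 (unadjusted p = 0.0245), with 10.6 to 13.2 FPKM in water and 10.5 to 12.5 FPKM in high PAC, and -0.11 (unadjusted p = 0.109) without high PAC replicate 3. Ifnar2 was at 14.1 ± 1.04 FPKM in water and 16.4 ± 2.08 FPKM in high PAC, with a log2 fold change of 0.08 (95% interval -0.16 to 0.33).

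Jak2 (gene ID 16452, chr19:29251828-29313080), which serves the interferon gamma receptor and the receptors of growth hormone and prolactin, was at 41.4, 43.2, 44.9, 43.2 and 39.2 FPKM in the water mice and at 40.1, 39.9, 29.0, 41.4 and 35.8 FPKM in the high PAC mice. Replicates 3 and 5 of high PAC lay below the water range. In the edgeR fit the log2 fold change was -0.28 (95% interval -0.50 to -0.07, unadjusted p = 0.0139) and was -0.17 (unadjusted p = 0.0496) without high PAC replicate 3. Stat2, which acts below the type I interferon receptor, had a log2 fold change of -0.27 (unadjusted p = 0.0649). Il13ra1 (gene ID 16164, chrX:36112110-36171259) had 40.0 to 51.8 FPKM in water and 38.0 to 46.7 FPKM in high PAC, with a log2 fold change of -0.25 (unadjusted p = 0.0220), and -0.18 (unadjusted p = 0.0774) without high PAC replicate 3. Its usual partner Il4ra had -0.08 (95% interval -0.35 to 0.19), and Stat6, which acts below both, had -0.11 (95% interval -0.24 to 0.02).

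Il17re (gene ID 57890, chr6:113458484-113470758) had higher values in both PAC groups. The water mice were at 2.79, 3.21, 2.77, 2.68 and 2.54 FPKM, the low PAC mice at 3.78, 3.40, 4.03, 4.48 and 3.27 FPKM, and the high PAC mice at 3.50, 4.39, 3.51, 3.55 and 4.14 FPKM. No range of a PAC group overlapped that of the water group. Over the whole table, 3.99% of the genes had high PAC FPKM values that all lay above the water values and 0.494% had such low PAC values, while 0.646% had high PAC values all below water, as did 0 of the 58 genes. The share of genes with both PAC groups above water was not counted. The expected counts behind these values were 120 to 142 in water, 158 to 198 in low PAC and 168 to 209 in high PAC. The log2 fold change was 0.38 for high PAC (95% interval 0.14 to 0.62, edgeR unadjusted p = 0.00386, adjusted p = 0.201, DESeq2 adjusted p = 0.0763) and 0.40 for low PAC (95% interval 0.16 to 0.64, edgeR unadjusted p = 0.00284, adjusted p = 0.976), with p = 0.0079 by the exact permutation test in each, the smallest it can give. Both comparisons use the same water mice. Across 21 alternatives the values ran from 0.29 to 0.45 for high PAC and from 0.31 to 0.45 for low PAC, and all 21 had an unadjusted p under 0.05 in each, while the adjusted p of high PAC ran from 0.0763 to 0.620. Il17rc starts 668 bases past the end of Il17re on the same strand and had a log2 fold change of -0.08 in each comparison (95% intervals -0.25 to 0.08).

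Low PAC was compared with water in the same fit. Again 0 of the 58 genes passed an adjusted p of 0.05 by edgeR, DESeq2 or limma, as did 0.0% of the 14386 genes tested by edgeR. At an unadjusted p under 0.05, 3 genes were lower (5.17%, against 2.21% of all genes) and 1 was higher (1.72%, against 1.4%). The 3 were Il1rn, Il1r2 and Il10rb, and the 1 was Il17re. The median of the 58 genes was -0.14, with 47 negative, and that of all genes was -0.01. All 7 STATs and 4 kinases had a negative log2 fold change, with medians of -0.15 in each class, and 0 of them had an unadjusted p under 0.05. The count of 3 turned to 6 without water replicate 2 or 4 or without both water replicates 4 and 5 (where 2 were higher), to 1 without water replicate 3 or low PAC replicate 2, and to 0 without both water replicates 1 and 3. In this comparison all 9 B cell (median -1.21), 8 T cell (-0.44) and 7 epithelial markers (-0.09) had a negative log2 fold change. So did 5 of 7 macrophage and 4 of 5 plasma cell markers. All 6 smooth muscle (0.31), 4 mesothelium (0.63) and 2 distal ileum markers (0.18) had a positive one. An unadjusted p under 0.05 was found in 0 of these markers. With the B cell score as a covariate the median of the 58 genes was -0.10. The part of the other cell types was not tested.

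Il1rn (gene ID 16181, chr2:24336853-24351494) was at 1.74, 1.32, 1.19, 1.19 and 1.60 FPKM in the water mice and at 1.05, 1.08, 1.04, 0.90 and 1.03 FPKM in the low PAC mice. All low PAC mice lay below all water mice, which 0.111% of all genes did. The log2 fold change was -0.52 (95% interval -0.92 to -0.12, edgeR unadjusted p = 0.0147, adjusted p = 0.976), and the exact permutation test gave p = 0.0079. Il1r2 (gene ID 16178, chr1:40074079-40125231), a decoy receptor that binds interleukin-1 without signalling, was at 0.54, 0.58, 0.80, 0.48 and 1.12 FPKM in water and at 0.45, 0.26, 0.40, 0.44 and 0.62 FPKM in low PAC. Of the low PAC mice, 4 lay below the lowest water mouse. Its log2 fold change was -0.74 (95% interval -1.38 to -0.10, edgeR unadjusted p = 0.0257, DESeq2 unadjusted p = 0.0524, exact permutation p = 0.0556), from 6 to 25 expected counts per mouse in these 10 mice, and -0.54 (unadjusted p = 0.0964) without water replicate 5. Il10rb had -0.12 (95% interval -0.25 to -0.0018, unadjusted p = 0.0470, exact permutation p = 0.183) and -0.05 without water replicates 1 and 3. Il22ra1 was at 32.5, 34.0, 35.2, 30.15 and 36.4 FPKM with low PAC, of which all but replicate 5 were under the water range, and the log2 fold change was -0.18 (95% interval -0.48 to 0.12, edgeR unadjusted p = 0.229, exact permutation p = 0.0317). Il1rap, higher with low PAC, had 0.18 (edgeR unadjusted p = 0.0560, exact permutation p = 0.0238).

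Both PAC fractions were also compared with each other, at the same dose and days, a direct test between the shorter and the longer chains (1 pair of compounds). Adjusted p-values under 0.05 were found in 0 of the 58 genes by edgeR, DESeq2 or limma and in 0.0% of the genes tested by edgeR. At an unadjusted p under 0.05, 2 genes were higher with high PAC (3.45%, against 1.84% of all genes), Il1r2 and Il1rn, and 1 was lower (1.72%, against 2.05%), Socs4. The median over the 58 genes was 0.02. Il1r2 was at 0.65, 0.53, 1.18, 1.01 and 0.80 FPKM with high PAC, 4 of which lay above the highest low PAC mouse (0.62), and its log2 fold change was 0.89 (95% interval 0.26 to 1.52, edgeR unadjusted p = 0.00835, adjusted p = 0.896, exact permutation p = 0.0159). Il1rn was at 1.41, 1.13, 2.22, 1.13 and 1.19 FPKM with high PAC, all above the low PAC mice, which 0.646% of all genes were, while 0.0904% were all below. Its log2 fold change was 0.42 (95% interval 0.02 to 0.82, unadjusted p = 0.0405, exact permutation p = 0.0079), and 0.22 (unadjusted p = 0.147) without high PAC replicate 3. Il22ra1 differed by -0.28 (95% interval -0.58 to 0.02, unadjusted p = 0.0636) and Il17re by -0.02 (95% interval -0.25 to 0.22).

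Cish and Socs1 to Socs3 are known to be induced by STATs, and the other SOCS genes are counted with them here by name. With high PAC, 6 of the 8 had a positive log2 fold change, and the median was 0.12. The exception with an unadjusted p under 0.05 was Socs4 (gene ID 67296, chr14:47276931-47296102), a SOCS protein linked to the receptor of epidermal growth factor. It was at 14.1, 15.8, 14.5, 16.0 and 14.8 FPKM in water and at 13.3, 11.6, 9.17, 14.9 and 13.7 FPKM in high PAC, where 4 of 5 mice lay below the water range. Its log2 fold change was -0.36 (95% interval -0.62 to -0.09, edgeR unadjusted p = 0.0108, adjusted p = 0.248) against water, -0.23 (unadjusted p = 0.0493) without high PAC replicate 3, and -0.26 (95% interval -0.53 to -0.0004, exact permutation p = 0.206) against low PAC, which was -0.17 (unadjusted p = 0.172) without low PAC replicate 5. In low PAC, 1 mouse (replicate 5, 18.6 FPKM) was above every other mouse of the series.

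**Figure D4:**
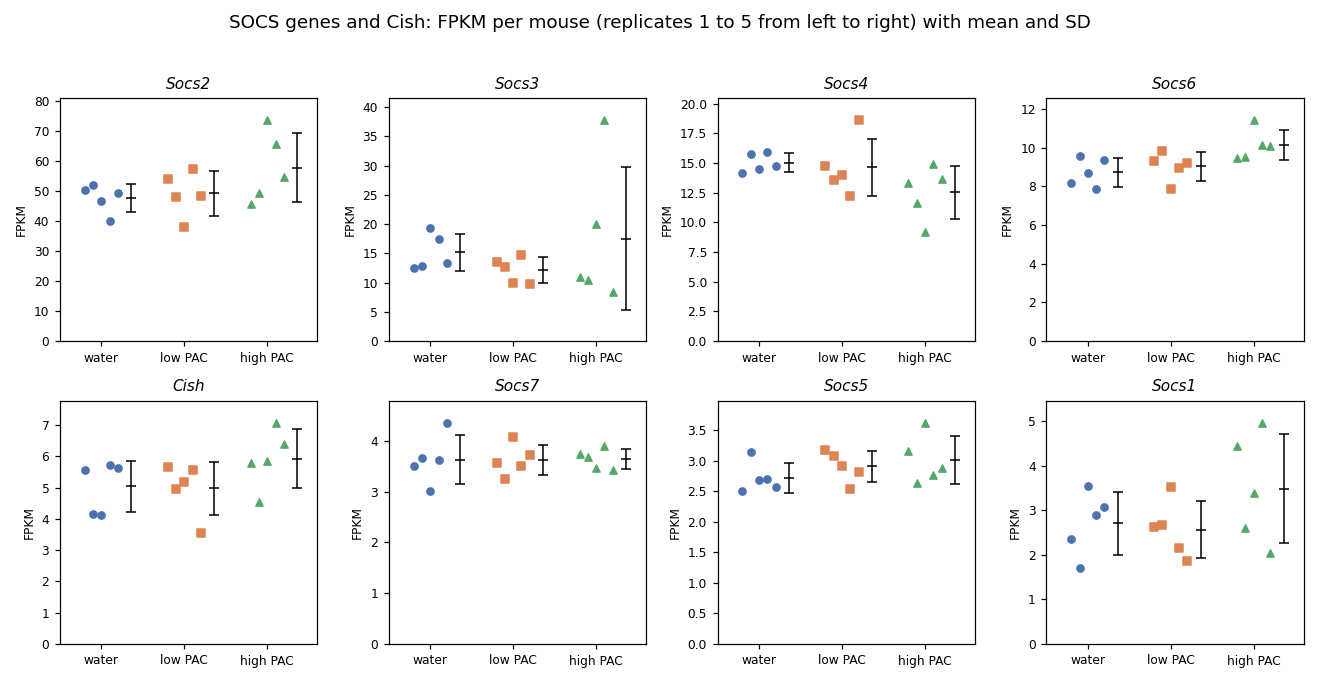
FPKM from 0 of the 7 SOCS genes and Cish, 1 point per mouse with replicates 1 to 5 from left to right in each group, and the mean with the SD beside them. Socs3 of high PAC replicate 4 (37.8 FPKM) and Socs2 of high PAC replicates 3 and 4 (73.6 and 65.6 FPKM) stand above all other mice, and 4 of 5 high PAC points of Socs4 lie below the water points.

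Socs3, the inhibitor of signalling through gp130, was at 12.6, 12.8, 19.4, 17.5 and 13.4 FPKM in water, at 13.5, 12.7, 10.01, 14.8 and 9.69 FPKM in low PAC and at 10.9, 10.5, 20.03, 37.8 and 8.33 FPKM in high PAC. Replicate 4 of high PAC was the highest of all 15 mice, and 3 of the other high PAC mice lay below all water mice, around a mean of 17.5 ± 12.2 FPKM. The log2 fold change of high PAC against water was 0.12 (95% interval -0.58 to 0.82). Socs2 was at 57.8 ± 11.6 FPKM in high PAC against 47.7 ± 4.70 in water, a log2 fold change of 0.18 (95% interval -0.10 to 0.46). Cish, the inhibitor induced by Stat5, had 0.14 (95% interval -0.17 to 0.45), and its exons overlap antisense genes. Socs6 was at 10.1 ± 0.786 FPKM in high PAC and 8.72 ± 0.744 FPKM in water, with 0.12 (95% interval -0.04 to 0.29). Of its high PAC mice, 3 lay above all water mice. For Socs6 the two-sided exact permutation test gave p = 0.0238 against water and p = 0.0397 against low PAC. Socs1, the inhibitor of interferon gamma signalling, had 0.27 (95% interval -0.28 to 0.81), Socs5 had 0.05 (95% interval -0.16 to 0.26) and Socs7 had -0.09 (95% interval -0.26 to 0.09). With low PAC, 7 of the 8 had a negative log2 fold change, with a median of -0.07, and the largest in size was that of Socs3 (-0.38, 95% interval -1.08 to 0.33).

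A set of 9 genes ran with the B cell markers mouse by mouse, in mice of all 3 groups. In Il21r, Il9r, Il5ra, Il22ra2, Il27ra, Il2rg, Stat4, Il10ra and Il7r, the 7 mice with a B cell marker sum over 75 FPKM all lay above the other 8 mice, and in 0 of the 58 genes did they all lie below. The 9 are 15.5% of the 58, against 2.79% of all genes tested that lay above in this way and 0.00695% that lay below. The 7 mice were set apart by their B cell markers, so this is a description without a test. These included 8 of the 10 genes with the largest coefficient of variation over the 15 mice. Il21r, the receptor of the interleukin that drives B cell maturation, varied most (94% of its mean) and lay at 2.66 to 7.93 FPKM in the 7 mice and at 0.41 to 1.06 FPKM in the others. Il2rg lay at 12.6 to 27.2 against 6.76 to 9.10 FPKM, Stat4 at 1.59 to 3.29 against 0.72 to 1.49 FPKM, and Il22ra2, a soluble receptor that neutralizes interleukin-22, at 2.77 to 9.08 against 1.43 to 2.19 FPKM. The summed T cell markers lay at 35.0 to 69.8 FPKM in the 7 mice and 17.9 to 28.1 FPKM in the others.

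**Figure D5:**
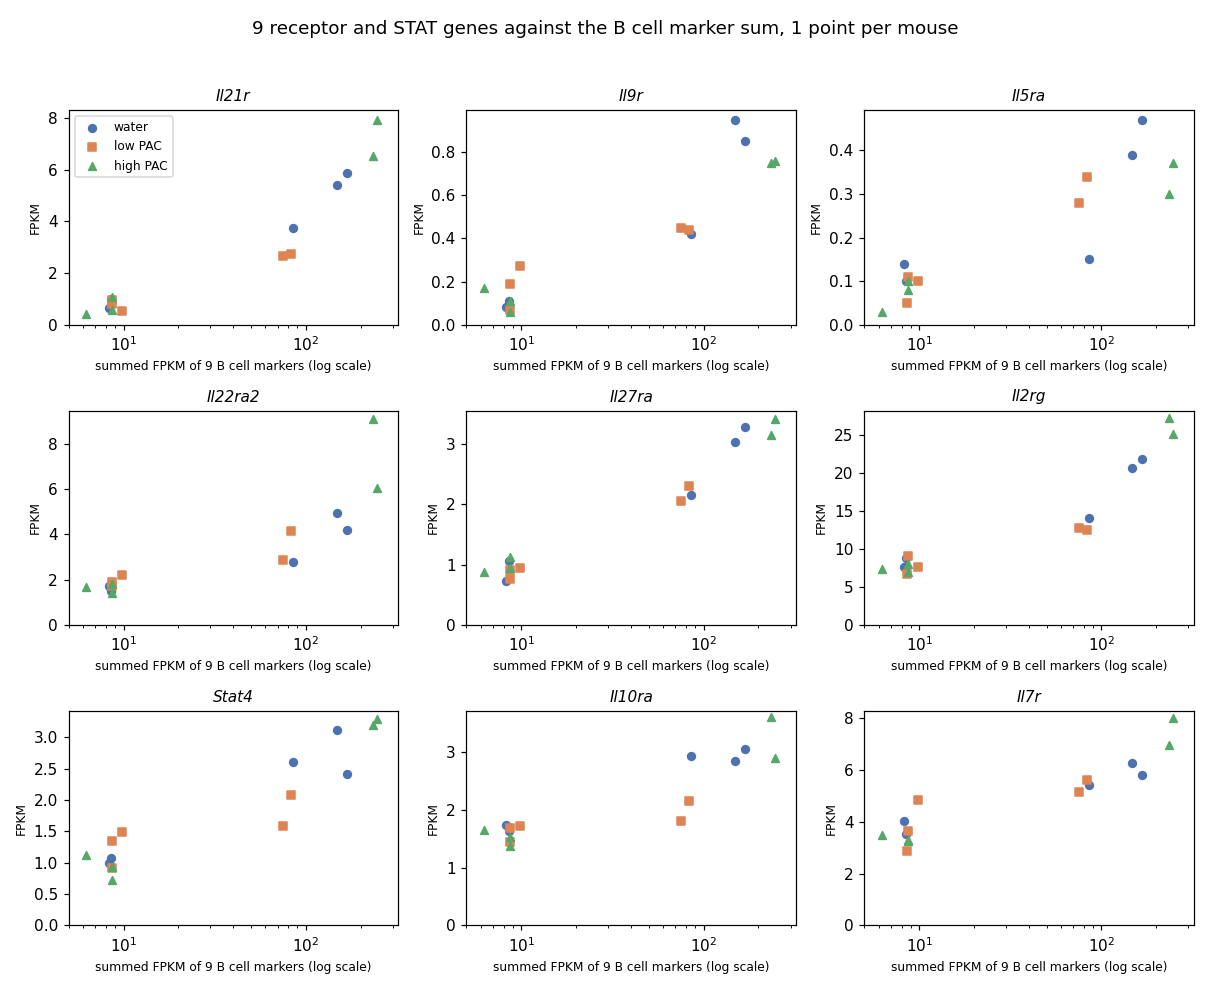
FPKM of the 9 genes that lay higher in all 7 mice with B cell marker sums over 75 FPKM, plotted against that sum on a log scale, 1 point per mouse. Mice of all 3 groups stand on both sides, and Il21r runs from 0.41 FPKM to 7.93 FPKM.

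The intervals of the treatment comparisons were wide in several of these genes. Against water, Il21r had a log2 fold change of -0.13 with high PAC (95% interval -1.77 to 1.51) and of -1.17 with low PAC (95% interval -2.87 to 0.53), and the low PAC group held 2 of the 7 mice against 3 in water. With the B cell score as a covariate these were -0.22 and -0.37, with unadjusted p-values of 0.310 and 0.113. Il22ra2 had 0.29 with high PAC (95% interval -0.73 to 1.31), where replicate 3 was at 9.08 FPKM and replicates 2, 4 and 5 at 1.69, 1.43 and 1.82 FPKM. Il10ra had -0.53 with low PAC (95% interval -1.07 to 0.02), and -0.31 with the covariate (unadjusted p = 0.0257). The 12 genes with an unadjusted p under 0.05 in some comparison were not among the 9. With the covariate, 10 of the 58 genes were lower and 1 higher with high PAC at an unadjusted p under 0.05, and 3 lower and 1 higher with low PAC. The share of all genes under that threshold was not counted with the covariate.

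Genes of the same pathway outside the 58 were taken from lists of ligands, other receptor chains, phosphatases and PIAS inhibitors, and STAT partners and targets. Of the 29 ligands on the list, 27 were listed in some mouse and only 9 passed the filter on low counts and were tested. With high PAC, 0 of these genes passed an adjusted p of 0.05 by edgeR. At an unadjusted p under 0.05, 4 of 13 other receptor chains tested were lower and 0 higher, 3 of 9 ligands lower and 0 higher, 3 of 14 STAT partners and targets lower and 0 higher, and 0 of 10 phosphatases and PIAS inhibitors in either direction, where 10.4% of all genes tested were lower and 4.37% higher. Il18, an epithelial cytokine of the interleukin-1 family, was at 14.4 to 21.3 FPKM in high PAC and 20.7 to 35.7 FPKM in water, with a log2 fold change of -0.73 (unadjusted p = 0.00649). Il15, which sustains intraepithelial lymphocytes, had -0.37 (unadjusted p = 0.0124). Prlr, the prolactin receptor, had -0.27 (unadjusted p = 0.0105), and Ifnlr1, which pairs with Il10rb to bind the lambda interferons, -0.34 (unadjusted p = 0.0187). Pim1, a kinase gene induced by STATs, was at 18.5 to 25.4 FPKM in high PAC, 17.9 to 27.9 in low PAC and 22.9 to 34.5 in water, with log2 fold changes of -0.46 (unadjusted p = 0.00360) and -0.41 (unadjusted p = 0.00844), and Bcl2l1, a survival gene, had -0.21 with high PAC (unadjusted p = 0.0331). Sh2b3 (-0.19) and Pias4 (-0.11) had the smallest p among the phosphatases and PIAS inhibitors, 0.173 and 0.175.

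With low PAC, 0 of the 13 other receptor chains, 1 of 9 ligands (Il33, -0.42, unadjusted p = 0.0247), 2 of 14 STAT partners and targets (Pim1 and Mcl1, the latter -0.18, unadjusted p = 0.0493) and 0 of 10 phosphatases and PIAS inhibitors were lower at an unadjusted p under 0.05, and 0 genes of the 4 lists were higher, against 2.21% and 1.4% of all genes tested. Ghr and Cntfr had the smallest p among the other receptor chains (0.35 and 0.44, unadjusted p of 0.0732 and 0.0827), as did Il1a after Il33 among the ligands (-0.56, unadjusted p = 0.0930) and Ptpn6 and Sh2b3 among the phosphatases (-0.43 and -0.18). Between the PAC groups, Prlr (-0.24, unadjusted p = 0.0212) and Csf2ra (-0.32, unadjusted p = 0.0381) were lower with high PAC, and 0 of the other genes of the 4 lists had an unadjusted p under 0.05, against 2.05% of all genes tested lower and 1.84% higher.

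Many of these genes sit side by side in the genome (GENCODE annotation of GRCm38). Of the 58, 25 lay within 300000 bases of another, in 16 neighbouring pairs. On chromosome 1, Il1r2, Il1r1, Il1rl2, Il1rl1, Il18r1 and Il18rap follow each other on the plus strand, and their log2 fold changes with high PAC were 0.15, -0.25, -0.36, -0.45, -0.17 and -0.11, with 0 of the 6 at an unadjusted p under 0.05. On chromosome 16, Ifnar2, Il10rb, Ifnar1 and Ifngr2 follow each other on the plus strand, with 0.08, -0.19, -0.19 and -0.22, the last 3 with an unadjusted p under 0.05. Stat5b, Stat5a and Stat3 on chromosome 11 had -0.02, 0.09 and -0.32. Ifngr1 and Il22ra2, 11768 bases apart on chromosome 10, had -0.12 and 0.29.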

How the data were processed

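RNA of ileal tissue from 15 mice (5 each given water, low PAC or high PAC, grouped by the labels) was sequenced on a BGISEQ-500, and the authors removed poor reads with SOAPnuke and mapped the rest to mm10 with Bowtie2. The submitters' processing notes also name HISAT and DESeq2, without their roles, and the tool that counted reads is not given in the sources used here. The authors deposited, for each mouse, an expected count per gene (estimated read pairs without normalization) and its FPKM, written with 2 decimals. Genes that a file did not list were given 0. A paired-end protocol without stated strand leaves reads of overlapping genes on opposite strands open to assignment to either.

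After rounding to whole numbers, the expected counts entered edgeR 4.0.16 (TMM, filterByExpr, quasi-likelihood F test) in R 4.3.3, in 1 model of all 15 mice over 14386 genes, with Benjamini-Hochberg adjusted p-values over all of them. A log2 fold change is on the scale of these TMM-scaled counts unless FPKM is named. The study's methods used NOISeq, which ranks genes by a probability of differential expression and not by a p-value. Single genes were compared by two-sided exact permutation of log2(FPKM + 0.1). Alternatives were DESeq2 1.42.0, limma 3.58.1 on log2(FPKM + 0.1) and log2(FPKM + 1), upper-quartile and RLE factors, no filter, the 2 groups alone, a replicate block, a B cell score as covariate each mouse left out and, chosen after seeing the data, 2 pairs of water mice left out. The edgeR test was checked on simulated data, with counts drawn at the means and library sizes of these mice and a known set of changed genes. Each gene was drawn on its own with 1 common spread between mice. Mice that differ in many genes at once, as with the B cell markers here, were therefore not simulated. Depth of 15963086 to 17903886 expected counts per mouse leaves the spread between mice as the main error, except in genes with few counts such as Il5ra (2 to 28.6 per mouse). Replicates of a group were not duplicates, since their counts differed by 13.1 to 89.5 times the sampling variance. The pairs with high PAC replicate 3 lay at 67.8 to 89.5, and every other pair at 43.05 or less.

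The genes named with statistics are those with an unadjusted edgeR p under 0.05 in any comparison, the 3 highest of each class, all kinases, STATs and inhibitors, and the 2 smallest p in each pathway list. Il21r, Il22ra2 and Il10ra, which ran with the B cell markers, and neighbours on a chromosome (Il1rl2, Il18r1 and Il18rap among them) were named after their values were seen. The genes and lists were chosen with earlier results of these data known. One of the 58 genes counts in every total, but its values are not reported here. Figures were drawn with matplotlib 3.10.9.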

Additional observations from a re-analysis of the deposited data

Results flagged for a closer look

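Within each group of 5 mice, a highest or lowest FPKM value was singled out where its gap to the nearest mouse exceeded 0.71 of the whole range of the group, which is Dixon's 95% critical value for 5 samples. Of 174 gene and group combinations, 9 were singled out, close to the 1 in 20 that chance gives. In the low PAC group these were Ifnar1 in replicate 4 (11.3 FPKM, against 12.2 to 12.6 in the others), Stat5b in replicate 3 (7.21, against 5.64 to 6.08), Il17rb in replicate 1 (2.13, against 2.56 to 2.68), Il1rn in replicate 4 (0.90, against 1.03 to 1.08) and Il12rb2 in replicate 2 (0.40, against 0.63 to 0.69). In the water group they were Tyk2 in replicate 1 (11.9 FPKM, against 9.86 to 10.4), Il1r1 in replicate 4 (3.72, against 4.68 to 4.98) and Il18rap in replicate 3 (0.96, against 0.46 to 0.52). In the high PAC group it was Il1rn in replicate 3 (2.22 FPKM, against 1.13 to 1.41), the library with the largest FPKM sum.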

How the results depend on the processing

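In every alternative, 0 of the 58 genes passed an adjusted p of 0.05 in any comparison, and 0 of the 17 log2 fold changes with an unadjusted p under 0.05 reversed. Those of the other genes were not followed through the alternatives, and values near 0 could change sign, as for Stat5b with high PAC (-0.02 by edgeR, 0.0048 by DESeq2) and for Il17re between the PAC groups (-0.02, and 8.57e-05 with the B cell covariate). The counts at an unadjusted p under 0.05 were less stable. For high PAC against water, main counts of 9 lower and 1 higher became 3 and 3 with limma at both pseudocounts, the higher count became 2 with upper-quartile factors, and without both water replicates 1 and 3 the lower count became 2 and the median 0.0097. For low PAC against water (3 lower, 1 higher), the higher count became 2 with upper-quartile or RLE factors and with limma, the lower count 6 in the fit of the 2 groups and 0 without both water replicates 1 and 3, and the counts 6 and 2 without water replicates 4 and 5. For high against low PAC (1 lower, 2 higher), the lower count became 0 with DESeq2, limma, upper-quartile or RLE factors, no filter, the 2 groups alone, the B cell covariate or the replicate block, and the higher count became 1 with the 2 groups alone or the replicate block. The cause of these shifts was not tested, and the share of all genes was counted for the main fit only. With each mouse left out in turn, the counts ran from 6 to 12 lower and 1 to 1 higher for high PAC against water, from 1 to 6 and 1 to 2 for low PAC, and from 0 to 4 and 1 to 4 between the PAC groups, and the medians from -0.18 to -0.07, from -0.16 to -0.10 and from -0.03 to 0.07.

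The labels give the groups the same replicate numbers, and the main fit did not treat the mice as pairs. The deviations of same-numbered mice correlated by 0.15 on average between high PAC and water (lowest pair -0.22), against -0.04 for mice of other numbers. The averages were 0.12 (lowest -0.27) against -0.03 between low PAC and water. Between the PAC groups they were -0.12 (lowest -0.31) against 0.03. Whether same-numbered mice shared a batch cannot be told from these values. With the replicate block, 8 genes were lower and 1 higher for high PAC against water, with a median of -0.13, and 3 lower and 1 higher for low PAC. Genes with few counts, such as Il1r2, Il5ra and Il9r, limit what depth can show.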
